A study of Mus musculus with 32 samples.

Results

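The 9 genes described here encode enzymes of the branch that turns farnesyl diphosphate into squalene and squalene into cholesterol: Fdft1, Sqle, Lss, Cyp51, Tm7sf2, Nsdhl, Hsd17b7, Ebp and Dhcr7. They were listed by name from the pathway, with earlier results of these data known, and no threshold on a measured value was used. All 9 were among the 24890 gene symbols in the deposited tables and among the 15036 that passed the filter on low counts, so no member was lost to it. Polyadenylated RNA was sequenced from E14, an established wild-type line of mouse embryonic stem cells. Both arms grew on gelatin, in medium with serum, LIF and a pair of kinase inhibitors, CHIR99021 (against GSK3) and PD0325901 (against MEK). The untreated arm is called ESC. The treated arm, called NrESC, grew in that medium with 10 µM T0901317, which activates the nuclear receptors LXR (liver X receptors). Passages 0, 2, 4, 6, 8, 10, 12 and 14 of both arms were sequenced in 2 libraries per passage, for a total of 16 groups and 32 libraries. NrESC libraries are labelled as treated at passage 0 as well, without the time of exposure. All cells come from 1 line, and it is not stated if paired libraries are separate cultures, so p-values measure only the spread between these libraries.

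Cells make cholesterol from acetyl-CoA through the mevalonate steps, which end in farnesyl diphosphate, a precursor shared with other products. Fdft1 commits it to sterols, Sqle epoxidises squalene, Lss closes the ring system, and the remaining enzymes strip methyl groups and shift or reduce double bonds until cholesterol is reached. Genes of this branch are classical targets of SREBP2, a membrane-bound transcription factor that is released when membrane sterol is low and that works with the promoter factors NF-Y and Sp1. LXRs respond to oxidised sterols and raise genes of cholesterol export and of fatty acid synthesis.

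RefSeq promoter windows (build GRCm38.p6, 250 bases before to 50 after a start) matched 7 of the 9 members in 9 windows. Stretches for 5 members are shown, one for each kind of course described in the results that follow: Dhcr7 had the largest difference between the arms, Cyp51 and Lss a peak at passage 8, Nsdhl no such peak in NrESC, and Hsd17b7 a course of its own. Each runs 5′ to 3′ on the gene's strand and lies before the start, and capitals mark the motifs CCAAT (NF-Y box, ATTGG on the other strand), GGGCGG (GC box, CCGCCC on the other strand), CACGTG (E-box) and TCACCTCA, a sterol-element-like sequence. The Dhcr7 stretch belongs to the most upstream of its 3 windows, which holds no CCAAT. The Cyp51 stretch ends at position -50 from the start and the Hsd17b7 stretch at -37. The CCAAT of Cyp51, at -29, and a further CCAAT of Hsd17b7, at -12, are therefore not shown. The Dhcr7 and Lss stretches overlap exons annotated for the same genes.
Dhcr7, chr7:143823017-143823166, plus strand: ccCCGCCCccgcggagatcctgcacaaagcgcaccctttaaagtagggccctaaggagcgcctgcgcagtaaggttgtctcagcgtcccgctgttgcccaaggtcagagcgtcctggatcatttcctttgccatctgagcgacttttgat
Cyp51, chr5:4104747-4104896, minus strand: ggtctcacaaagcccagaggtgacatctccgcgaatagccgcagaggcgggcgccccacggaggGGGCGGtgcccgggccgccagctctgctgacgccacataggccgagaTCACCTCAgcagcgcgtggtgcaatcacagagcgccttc
Lss, chr10:76531455-76531604, plus strand: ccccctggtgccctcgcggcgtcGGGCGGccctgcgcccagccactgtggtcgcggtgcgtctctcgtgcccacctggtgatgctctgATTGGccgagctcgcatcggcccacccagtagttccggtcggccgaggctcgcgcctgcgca
Nsdhl, chrX:72918412-72918520, plus strand: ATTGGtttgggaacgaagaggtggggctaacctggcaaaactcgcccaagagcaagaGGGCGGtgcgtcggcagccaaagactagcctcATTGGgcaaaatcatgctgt
Hsd17b7, chr1:169969242-169969391, minus strand: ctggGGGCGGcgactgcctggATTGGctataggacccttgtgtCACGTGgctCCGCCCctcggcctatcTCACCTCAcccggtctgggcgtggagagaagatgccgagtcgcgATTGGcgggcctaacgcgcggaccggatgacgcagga

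All 7 matched members held CCAAT in at least 1 window, and all 7 held GGGCGG. By window, CCAAT was in 7 of the 9, against 37.4% of all 32851 windows, and GGGCGG in 8 of the 9, against 35.7%. The NF-Y and GC boxes were thus present in the promoter of Hsd17b7 as in those of the other matched members. TCACCTCA, added to the search after the sequences had been seen, was found in Cyp51 and Hsd17b7 and in 1.17% of all windows. The sterol regulatory element letters TCACNCCAC were in 1.24% of all windows and the direct repeat that LXR binds in 0.0761%, and neither was in a member's window. CACGTG stood in a window of Hsd17b7 and in a window of Dhcr7, against 7.15% of all windows. Both strands were searched, and a match describes letters and not a bound site.

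Library totals ran from 24989652 to 45818054 counts in ESC and from 25062540 to 50463489 in NrESC, and single members drew from 280 (Tm7sf2) to 9858 (Fdft1) of them. The LXR targets Abcg1, Abca1 and Mylip were higher in NrESC over the 8 passages by 4.18, 3.10 and 2.27 on the log2 scale, as a check of the treatment. TPM is a transcript's share of the library, corrected for gene length. Summed over 8 embryonic stem cell markers it was 4990 to 6033 in ESC and 4277 to 5774 in NrESC. Among fibroblast markers, Lum was at 0 in all 32 libraries. Col1a1, Col1a2, Thy1, Pdgfrb and Fbn1 had counts in every library, with Pdgfrb reaching the most, at 3.85 to 10.8 TPM. On the first principal components the treated pair of passage 8 stood apart. Their stem cell marker sums were 4282 and 4277 TPM, below the 4701 to 6033 of the other 30 libraries, and their fibroblast marker sums were 22.6 and 23.3 TPM, above the 9.76 to 19.0 of the others. Mean differences, slopes, pairs of enzymes and correlations of members and markers are therefore given with and without passage 8. The part of these marker differences in them was not tested.

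**Figure D1:**
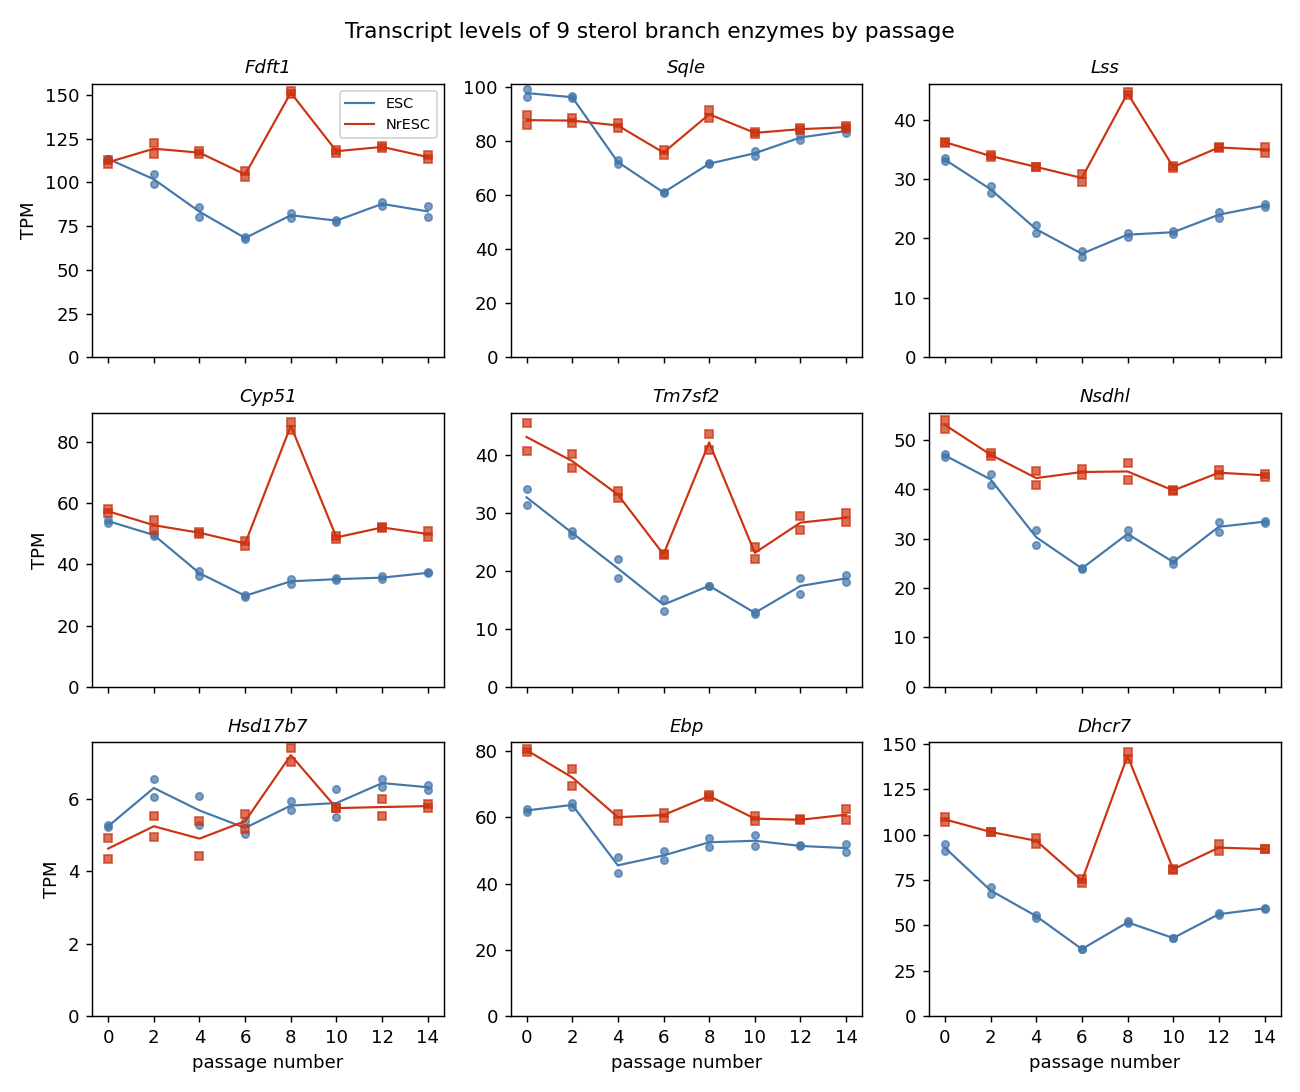
Levels of the 9 enzymes in TPM (y axis, linear from 0, a scale of its own per enzyme) against passage number (x axis); each point is 1 library, circles for ESC and squares for NrESC, and lines join the means of the 2 libraries. Dhcr7 in NrESC stood above ESC at every passage and reached 145 and 141 TPM at passage 8, whereas Hsd17b7 stayed between 4.32 and 7.39 TPM in both arms.

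The branch was transcribed at very unequal levels. Over the 8 passages of ESC, mean TPM ran from 87.1 ± 14.2 for Fdft1, through 79.8 ± 12.6 for Sqle and 58.1 ± 17.2 for Dhcr7, down to 24.0 ± 5.01 for Lss and 5.85 ± 0.476 for Hsd17b7 (SD over 8 passage means). In NrESC the order was the same except that Dhcr7, at 98.8 ± 21.0 TPM, moved above Sqle at 84.8 ± 4.28. Ranges of 1 SD overlapped between neighbours in this order, except between Tm7sf2 and Hsd17b7 in both arms and, in NrESC, between Sqle and Ebp and between Nsdhl and Lss. Hsd17b7 was thus set apart as the lowest member in both arms. Members summed to 538 TPM in ESC and 582 TPM in NrESC at passage 0, to 305 and 464 at passage 6, and to 366 and 673 at passage 8.

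In the mean of the 8 passages, 8 of the 9 enzymes were higher in NrESC and 0 were lower by edgeR's quasi-likelihood test or by DESeq2, with 1, Hsd17b7, lower at an unadjusted p under 0.05 and called lower without any 1 of 8 libraries. Dhcr7, the reductase that gives cholesterol as its product, differed most (1.75-fold), followed by Tm7sf2, Lss and Cyp51, while Sqle, the epoxidase, was only 1.09-fold higher and Hsd17b7 was not called. Of all genes tested, 39.1% were called higher and 39.8% lower. The members' median log2 fold change was 0.48, beside -0.0014 over all genes. With passages taken as the unit, where 55.5% of genes were called, 7 members were called higher and Sqle was not (adjusted p = 0.114). Without passage 8 the same 8 enzymes were higher, with log2 fold changes of 0.42 for Fdft1, 0.08 for Sqle, 0.49 for Lss, 0.40 for Cyp51, 0.66 for Tm7sf2, 0.46 for Nsdhl, 0.29 for Ebp and 0.71 for Dhcr7. In bulk RNA, fewer expressing cells and less RNA per cell cannot be told apart.

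Fdft1, squalene synthase, lies at the entry of the branch. It measured 67.5, 84.3 and 113 TPM (lowest, median and highest of 16 libraries) in ESC and 103, 117 and 152 in NrESC. At passage 0 both treated libraries, at 110.3 and 112.5 TPM, lay just below both untreated ones, at 113.4 and 113.3. At each later passage the treated libraries lay above. For this and the other members, how often the arms' libraries lie apart over all genes was not counted. The log2 fold change in the mean of the 8 passages was 0.48 (SE 0.0114; adjusted p = 3.22e-33, edgeR's quasi-likelihood test with Benjamini-Hochberg adjustment). The difference was called higher at 7 passages and not at passage 0, where it was -0.03.

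Sqle, a second rate-controlling oxygenase of cholesterol synthesis, changed sign. At passage 0 it measured 96.1 and 99.2 TPM in ESC against 85.7 and 89.6 in NrESC, so both treated libraries lay below both untreated ones. At passage 6 the values were 60.8 and 61.1 TPM in ESC against 76.7 and 74.6 in NrESC, the opposite order, again without overlap. The log2 fold change was -0.16 at passage 0 and -0.14 at passage 2, both called lower, and then 0.33, 0.31, 0.38 and 0.13 at passages 4, 6, 8 and 10, all called higher. At passages 12 and 14 it was 0.06 and 0.04 and was not called. The mean of the 8 passages, 0.12 (SE 0.0102), thus averages over both directions.

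Lss, which cyclises squalene epoxide to lanosterol, measured 17.0, 22.8 and 33.6 TPM (lowest, median and highest) in ESC and 29.6, 34.3 and 44.7 in NrESC. Its libraries did not overlap at any passage. Lss was higher by 0.57 (SE 0.0113) on the log2 scale in the mean of the 8 passages, and it rose from 0.12 at passage 0 to 1.15 at passage 8. The call at passage 0 was lost without replicate 2 of ESC at that passage (0.09, adjusted p = 0.0618).

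Cyp51, the lanosterol demethylase, measured 29.5, 36.2 and 54.6 TPM in ESC and 46.0, 51.0 and 86.6 in NrESC (lowest, median and highest). Apart from passage 8 the NrESC libraries never went above 57.9 TPM. The highest treated values, 84.0 and 86.6 TPM, were the pair of passage 8, where ESC had 33.7 and 35.3. Its log2 fold change was 0.52 (SE 0.0114) in the mean of the 8 passages, 1.35 at passage 8, and 0.40 in the mean of the other 7 passages. At passages 0 and 2 it was only 0.08 and 0.09. The first of these calls (adjusted p = 0.0437 by edgeR's quasi-likelihood test) was lost when any of 29 of the 32 libraries was left out, and the other when any of 3 was.

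Tm7sf2, a sterol reductase that acts after Cyp51, had a low level and a large difference. It measured 12.6, 18.5 and 34.0 TPM in ESC and 22.1, 31.2 and 45.5 in NrESC. Both arms moved over a wide range, from 34.0 and 31.3 TPM at passage 0 to 12.6 and 13.0 at passage 10 in ESC, and from 45.5 and 40.6 to 24.1 and 22.1 in NrESC. Within every passage the treated libraries were above the untreated ones. Its log2 fold change was 0.74 (SE 0.0282) in the mean of the 8 passages and lay between 0.38 and 1.33 at single passages. Lbr, a nuclear envelope protein with the same reductase activity, was higher by 0.29 (SE 0.0112).

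Nsdhl and Hsd17b7 act in the same methyl-removing cycle, and they behaved differently. Nsdhl measured 23.9, 31.7 and 47.1 TPM in ESC and 39.7, 43.4 and 53.9 in NrESC, with treated libraries above untreated ones at every passage. Its log2 fold change was 0.47 (SE 0.0163) in the mean of the 8 passages and was largest at passage 6 (0.86), not at passage 8 (0.54). Hsd17b7, the ketoreductase of the cycle, measured 5.01, 5.98 and 6.55 TPM in ESC and 4.32, 5.56 and 7.39 in NrESC. Its libraries overlapped at 3 passages, the treated pair lay below at 4, and it lay above only at passage 8, with 7.0 and 7.39 TPM against 5.69 and 5.92. The log2 fold change was -0.06 (SE 0.0292; adjusted p = 0.0567, edgeR's quasi-likelihood test with Benjamini-Hochberg adjustment) in the mean of the 8 passages. It was called lower at passage 2 (-0.26) and higher at passage 8 (0.35). Without passage 8 the mean was -0.12 and was called lower (adjusted p = 0.00131), and leaving out any 1 of 8 libraries also brought that call, with values between -0.08 and -0.07. The call at passage 2 was lost without replicate 2 of either arm at that passage. An antisense gene overlaps Hsd17b7 and another overlaps Lss in the annotation, and the counting is not stated to use strand.

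Ebp, the isomerase that moves the ring double bond, differed by a smaller and steadier amount. It measured 43.1, 51.4 and 64.3 TPM in ESC and 59.0, 61.3 and 80.7 in NrESC, without overlap within any passage. The log2 fold change was 0.30 (SE 0.0158) in the mean of the 8 passages, and single passages lay between 0.17 and 0.49. Ebp was the only member with a difference at passage 0 (0.37) above its own mean.

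Dhcr7, the last reductase, measured 36.8, 55.9 and 94.8 TPM in ESC and 73.5, 95.0 and 145 in NrESC. The arms were closest at passage 0, with 90.9 and 94.8 TPM against 107 and 110. They were farthest apart at passage 8, with 52.2 and 51.2 TPM against 145 and 141. The log2 fold change was 0.81 (SE 0.0109; adjusted p = 2.44e-42, edgeR's quasi-likelihood test with Benjamini-Hochberg adjustment) in the mean of the 8 passages and 0.71 without passage 8. In order of passage it was 0.22, 0.55, 0.89, 1.01, 1.52, 0.91, 0.73 and 0.64, so the difference built up to passage 8 and stood at less afterwards, while staying above that of passage 0.

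**Figure D2:**
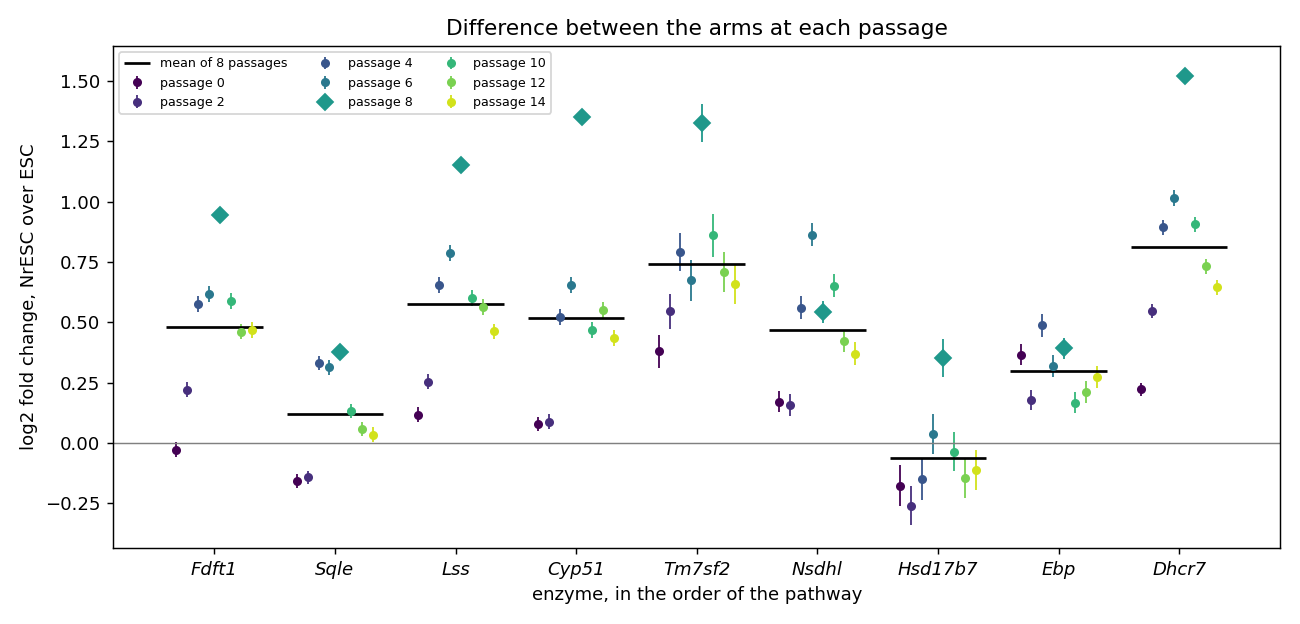
Log2 fold change of NrESC over ESC (y axis) for the 9 enzymes in the order of the pathway (x axis) at each of the 8 passages; points are estimates of the edgeR model, bars are 1 SE from the spread within pairs of libraries, diamonds mark passage 8 and horizontal lines the mean of the 8 passages. Passage 0 is at or near the bottom for most enzymes, from -0.18 for Hsd17b7 to 0.38 for Tm7sf2, and passage 8 is at the top for 7 of them.

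The number of members called followed this course. At passage 0, 6 were higher and 1 lower (17.6% and 14.8% of all genes), with a median of 0.12, and at passage 2, 7 were higher and 2 lower (24.7% and 23.8%), with a median of 0.18. Leaving out single libraries brought the higher calls down to 4 at passage 0 and 5 at passage 2, through Cyp51 (any of 29 and of 3 libraries), Lss at passage 0, and Nsdhl (without ESC replicate 1) and Ebp (without NrESC replicate 1) at passage 2. From passage 4 on, 0 members were lower by edgeR's quasi-likelihood test or DESeq2 (also 0 at an unadjusted p under 0.05, and 1, Hsd17b7 at passage 4, without NrESC replicate 1 of that passage), although 26.9%, 25.1%, 34.6%, 28.5%, 24.0% and 21.3% of all genes were at these 6 passages. Higher calls were made for 8 members when cells were at passage 4 (27.4% of all genes), 8 at passage 6 (23.6%) and 9 at passage 8 (35.2%). For passages 10, 12 and 14 the numbers were 8, 7 and 7 (27.0%, 23.1% and 19.7%). Their medians from passage 4 to 14 were 0.56, 0.65, 0.95, 0.59, 0.46 and 0.43, beside medians over all genes within 0.01 of 0. Lss, Cyp51, Tm7sf2, Nsdhl, Ebp and Dhcr7 were higher at all 8 passages, and the share of all genes called so was not counted. Whether the difference varied among passages was tested directly, and it did for 9 of 9 members, beside 69.4% of all genes. For Hsd17b7 that call was lost without passage 8 (adjusted p = 0.304).

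Much of the change over passages lay in the untreated arm. In ESC, CPM (a gene's count over its TMM-scaled library total, used within 1 gene) was highest at passage 0 for 8 members and lowest at passage 6 for 7. At passage 6 the 8 members other than Hsd17b7 stood at 39.3% (Dhcr7) to 77.1% (Ebp) of their passage 0 level. They stood at 52.8% (Tm7sf2) to 79.1% (Sqle) at passage 14. In NrESC the same 8 stood at 52.5% (Tm7sf2) to 92.7% (Fdft1) at passage 6 and at 63.2% to 95.9% at passage 14. Fdft1 illustrates the contrast, since it stood at 59.3% of its starting level in ESC at passage 6 and at 92.7% in NrESC. Ebp did not share it, at 77.1% in ESC and 74.8% in NrESC. Levels varied among passages for 9 of 9 members in ESC (80.9% of all genes) and for 9 of 9 in NrESC (85.2%), where Hsd17b7 was lost without passage 8 (adjusted p = 0.0560, edgeR's quasi-likelihood test).

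A linear slope over passage number summarised these courses. It was called lower in ESC for 8 members (28.2% of all genes), from -0.0691 log2 per passage for Tm7sf2 to -0.0204 for Sqle. In NrESC it was called lower for 7 (31.3%) and higher for Hsd17b7 (28.6%), Fdft1 at -0.0014 not being called either way. The call for Lss in NrESC (-0.0039) was lost without any of 12 libraries, and with limma on log2(TPM + 1) this slope turned positive (0.0029), as did that of Fdft1 (0.0053). Subtracting the ESC slope from the NrESC slope gave a positive difference for 7 members (11.3%), that is all but Hsd17b7 and Ebp, with Cyp51 (0.0318) and Fdft1 (0.0300) the largest. Without passage 8 the numbers of members called were again 8 in ESC, 7 and 1 in NrESC, and 7 for the difference. The shares of all genes in that fit are not given here. With passages as the unit, where edgeR's quasi-likelihood test on the summed libraries called 0.479% of all genes in ESC, 2.4% in NrESC and 0.0133% for the difference, 0 slopes and slope differences of members were called. Their adjusted p was 0.118 or more in ESC, 0.0915 or more in NrESC and 1.00 for the difference. By unadjusted p under 0.05, that fit had 6 members in ESC, 2 in NrESC and 0 for the difference, while the test on single libraries gave the counts above. The shares of all genes under 0.05 unadjusted are not given here, so the unadjusted counts cannot be called unusual. The slopes called therefore exceed the spread between paired libraries. Against the scatter of passages about a line 0 passed adjustment, in a fit that called few of all genes. That fit does not decide whether they exceed this scatter.

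Passage 8 was set against its neighbours, passages 6 and 10, within each arm. This contrast was chosen because the NrESC libraries of passage 8 stood apart in earlier results of these data. Its p-values and calls therefore describe these libraries and are not an independent test of passage 8. In NrESC 8 members were higher at passage 8 (36.9% of all genes). Dhcr7 was higher by 0.88 (SE 0.0239), Tm7sf2 by 0.87 (SE 0.0613) and Cyp51 by 0.83 (SE 0.0254) on the log2 scale. Lss followed at 0.51, Fdft1 at 0.45 and Hsd17b7 at 0.37, and Sqle and Ebp were higher by 0.18 and 0.14. Nsdhl was the exception, with 41.8 and 45.4 TPM at passage 8 among 44.0 and 42.9 at passage 6 and 39.7 and 39.8 at passage 10, a difference of 0.07 (adjusted p = 0.119, edgeR's quasi-likelihood test). That difference was called without NrESC replicate 1 of passage 8.

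In ESC the same contrast called 4 members higher (22.4% of all genes): Dhcr7 by 0.32, Tm7sf2 by 0.31, Nsdhl by 0.28 and Fdft1 by 0.10, the last of which was lost without ESC replicate 2 of passage 8. The difference between the arms at passage 8 exceeded that at its neighbours for 8 members (24.4%) and was smaller for Nsdhl (25.2%), at -0.22 (SE 0.0574). Cyp51 had the largest value, 0.79 (SE 0.0392), and its level in ESC was higher by only 0.04 at passage 8. That small change in ESC was not particular to Cyp51, as Sqle, Lss, Hsd17b7 and Ebp were not called higher there either. The value for Ebp, 0.15 (adjusted p = 0.0213, edgeR's quasi-likelihood test), lost its call without any of 13 libraries. It was also not called by DESeq2 (adjusted p = 0.0907) or by limma on log2(TPM + 1) (adjusted p = 0.207). The same NrESC libraries had the lower stem cell marker sums and higher fibroblast marker sums given above.

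**Figure D3:**
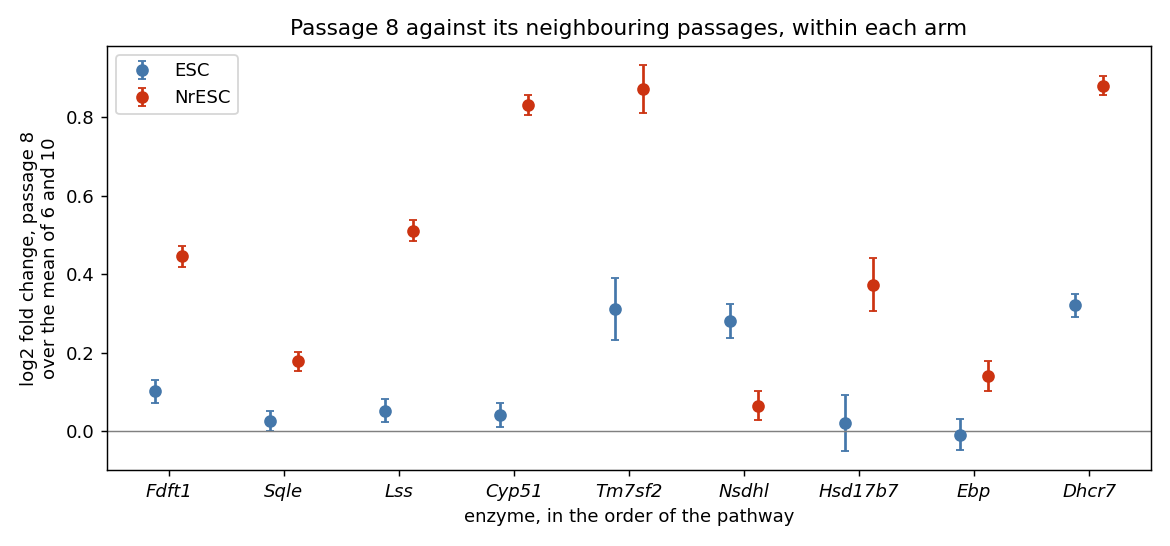
Log2 fold change of passage 8 over the mean of passages 6 and 10 (y axis) for each enzyme (x axis), in ESC and in NrESC; points are estimates of the edgeR model and bars are 1 SE. Cyp51 is at 0.83 in NrESC and 0.04 in ESC, and Nsdhl is the only enzyme with the ESC point above the NrESC point.

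Whether enzymes differed from each other in their response was tested over the 8 passages for all 36 pairs, with an exact sign-flip permutation test (two-sided, smallest possible p = 0.0078125) and Benjamini-Hochberg adjustment over the 36. Of these, 26 pairs were called, and 27 without passage 8, where Lss exceeded Cyp51 by 0.09 ± 0.0641 (SD over 7 passages; adjusted p = 0.0245, exact test). Sqle and Hsd17b7 differed from every other member, Sqle being below all but Hsd17b7 at each of the 8 passages. Dhcr7 exceeded Sqle by 0.69 ± 0.218 (SD over 8 passages), Hsd17b7 by 0.87 ± 0.225 and Fdft1 by 0.33 ± 0.118 in log2 fold change. Between Dhcr7 and Tm7sf2 the difference was 0.06 ± 0.147 and was not called (adjusted p = 0.290, exact test). Fdft1, Cyp51 and Nsdhl could not be separated from each other, at mean differences of 0.01 to 0.05 and SDs of 0.175 to 0.327. Passages of 1 serial culture are not independent cultures, which this test treats them as.

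**Figure D4:**
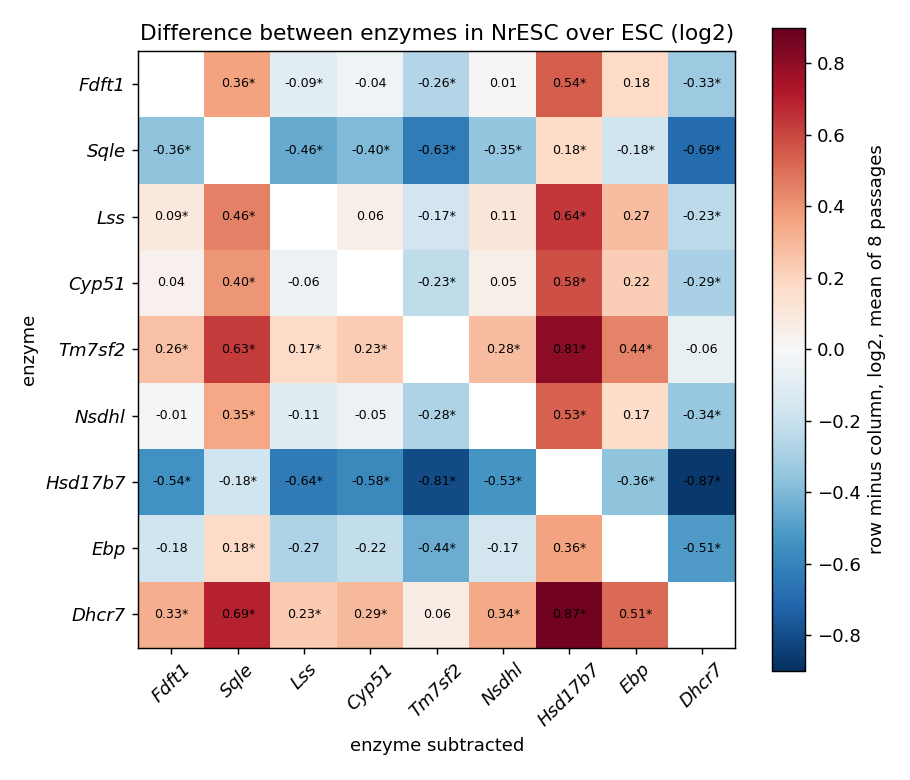
Difference in log2 fold change (NrESC over ESC, mean of 8 passages) between the enzyme in the row and the enzyme in the column, shown as color and number; asterisks mark the 26 of 36 pairs called by the exact sign-flip test. The rows of Sqle and Hsd17b7 are marked throughout, and the largest difference is 0.87 between Dhcr7 and Hsd17b7.

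Across the 16 groups the members other than Hsd17b7 moved together. The 28 pairs without Hsd17b7 had Pearson correlations of log2 CPM from 0.74 to 0.98, with a median of 0.88. The 8 pairs with it had a median of 0.04 and ran from -0.21 to 0.17. Within the 8 ESC groups the median of the 28 pairs was 0.94, and within the 8 NrESC groups it was 0.72, where the lowest value was -0.01. The pairs with Hsd17b7 had a median of 0.24 in ESC and of 0.21 in NrESC, where they ran from -0.43 (Nsdhl) to 0.73 (Fdft1), above several pairs without it. Without passage 8 the 28 pairs had medians of 0.89 over 14 groups, 0.94 in ESC and 0.80 in NrESC. The pairs with Hsd17b7 then had medians of -0.39, 0.23 and -0.78, so that in NrESC passage 8 turned the sign of its relation to several members. These groups share libraries, scaling and the order of passages, so the correlations are a description only.

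The mean profile of the 9 enzymes, each scaled to equal variance, was most like that of Lss (r = 0.978 over 16 groups) and least like that of Hsd17b7 (0.122). Without passage 8 these values were 0.971 and -0.276, with Nsdhl (0.979) and Cyp51 (0.978) then above Lss. Each member is itself part of the profile it is set against. Outside the listed genes, the 5 nearest of 11465 candidates were sought over the 16 groups only. First came Aacs (0.957), an acetoacetyl-CoA synthetase, Plpp2 (0.956), a lipid phosphatase, and Ppp2r5a (0.954), a phosphatase subunit. Next were Mapk8ip1 (0.953), a kinase scaffold, and Spice1 (0.951), a centriole protein. Insig1, the sterol-regulated retention protein of SREBP, and Srebf2 itself had 0.972 and 0.966, and 0.968 and 0.955 without passage 8. Stem cell markers also moved with the profile, in the opposite direction for some: the 8 markers ran from -0.920 for Nanog, -0.834 for Sox2 and -0.763 for Zfp42 to 0.534 for Pou5f1. Without passage 8 Nanog, Sox2 and Zfp42 had -0.878, -0.779 and -0.750, and Klf4 (0.565) was above Pou5f1 (0.543). Esrrb moved from -0.380 with passage 8 to 0.0617 without it. Among the lineage markers Pax6 had -0.825 and T 0.403, and -0.822 and 0.537 without passage 8. The part of these markers in the members' courses was not tested.

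The other genes of the branch moved in the same direction in the mean of the 8 passages. All 6 listed were called higher (39.1% of all genes), with a median of 0.33. Msmo1, the oxidase that starts methyl removal, was highest at 0.48 (SE 0.0129). At passage 0 the 6 values still lay between -0.04 (Msmo1) and 0.09 (Sc5d). Upstream, all 7 mevalonate genes tested were called higher (again beside 39.1% of all genes), with a median of 0.41. Pmvk, a mevalonate pathway kinase, was highest at 0.70, and Idi1, the isomerase of isopentenyl diphosphate, was lowest at 0.08. As with Sqle, Idi1 was called lower at passage 0, at -0.26.

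For the 3 lists that follow, calls in the mean of the 8 passages stood near the shares of all genes, 39.1% higher and 39.8% lower, from which nothing particular to them can be read. Of 6 users of farnesyl diphosphate outside the sterol branch, 3 were higher and 2 lower, from Dhdds at 0.15, an enzyme of dolichol synthesis, to Fntb at -0.48, a subunit of protein farnesyltransferase. Among 7 regulators and sensors 4 were higher and 2 lower. Srebf2, which encodes SREBP2, was at 0.47 (SE 0.0102), Insig1 at 0.58, Srebf1, a direct LXR target, at 1.73, and Scap, the escort of SREBP, at -0.17. Cyp27a1, a sterol hydroxylase, was at 0.67 and Nceh1, a cholesteryl ester hydrolase, at -0.10, with 1 higher and 1 lower among the 3 tested genes of cholesterol use.

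The LXR targets shared some of this course and not all of it. At passage 0 Abca1, a cholesterol exporter, was already higher by 3.30 and Mylip, a ubiquitin ligase, by 2.32 on the log2 scale, while the members' median was 0.12. Their slopes over passages were lower in NrESC than in ESC (-0.0093 for Abca1, -0.0173 for Abcg1 and -0.0325 for Mylip, all called by edgeR's quasi-likelihood test), while 7 members had a higher slope. At passage 8 against its neighbours the difference between the arms changed by 0.38 for Abcg1, in the direction of most enzymes, and by -0.22 for Abca1, and the value for Mylip, -0.02, was not called. Insig1 was at 0.06 at passage 0, where it was not called, and at 1.36 at passage 8, the values being near those of Cyp51 (0.08 and 1.35).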

How the data were processed

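The members and lists were chosen with earlier results of these data known. The authors deposited expected counts per gene, not normalized, and a table of TPM, which adjusts for length and has the same total in each library. Per the file headers, both have the column endings of RSEM's gene-level output. Per the submitters' processing notes STAR, Cufflinks 2.2.1, HTSeq 0.12.4, DESeq2, edgeR, RSEM and the mm9 build were used. The role of each, the annotation and the strand setting are not given in the sources used here. RSEM divides reads shared between genes.

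Expected counts (0.837% fractional) were rounded, scaled by TMM (factors 0.979 to 1.03) and filtered with filterByExpr. A quasi-likelihood model with 1 mean per group (edgeR 4.0.16, R 4.3.3) was fitted to all 32 libraries, with 16 residual degrees of freedom. Its SE covers only the spread within pairs of libraries. P-values were adjusted by Benjamini-Hochberg over all 15036 genes, with a threshold of 0.05. TPM served to compare genes. Group means for pairs and profiles used log2 CPM with a prior count of 2. Libraries of a group differed beyond counting noise (chi-square per degree of freedom 1.71 to 3.31), so each was counted separately. The fit was tested on simulated counts. Alternatives were RLE scaling, library totals, no filter, DESeq2 1.42.0, limma 3.58.1 on log2(TPM + 1) or log2(TPM + 0.1), a replicate block, leaving out passage 8 or each library, passages as the unit (libraries summed, edgeR), and, added after seeing the data, passages as the unit for the slope of each arm and correlations without passage 8.

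Named besides the members are, per list, the genes with the highest and lowest mean difference, the LXR targets, Srebf2, Srebf1, Insig1 and Lbr, and the 5 genes nearest to the members' profile (minimum mean log2 CPM 1). Sc5d is named for a range at passage 0. A few others under this rule are not reported here. Promoter sequences are from RefSeq.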

Additional observations from a re-analysis of the deposited data

Results flagged for a closer look

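The difference between the arms varied among passages for 9 of the 9 enzymes (69.4% of all genes), by a test of the variation itself. The slope over passages in NrESC minus that in ESC was called higher for 7 enzymes (11.3% of all genes). In log2 per passage the difference was 0.0300 for Fdft1, 0.0108 for Sqle, 0.0247 for Lss and 0.0318 for Cyp51. It was 0.0215 for Tm7sf2, 0.0159 for Nsdhl and 0.0263 for Dhcr7. None of these passed with passages as the unit.

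The difference between the arms at passage 8, relative to passages 6 and 10, also passed edgeR's quasi-likelihood test for every enzyme. Of all genes, 24.4% were called higher and 25.2% lower. DESeq2 and limma on log2(TPM + 1) did not call Ebp. On the log2 scale it was 0.34 for Fdft1, 0.15 for Sqle, 0.46 for Lss, 0.79 for Cyp51, 0.56 for Tm7sf2, 0.35 for Hsd17b7, 0.15 for Ebp and 0.56 for Dhcr7. Nsdhl had the opposite sign, at -0.22. Passage 8 had been picked because its NrESC libraries stood apart in earlier results of these data, so these calls are not independent support.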

How the results depend on the processing

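Of 162 single values for the 9 enzymes, 148 kept their direction and their side of the threshold without each of the 32 libraries in turn. The members lower in the mean of the 8 passages were 1 under RLE scaling, 1 with limma on log2(TPM + 1), 1 with limma on log2(TPM + 0.1) and 1 without passage 8, each time Hsd17b7, and ranged from 0 to 1 when single libraries were left out. Leaving out single libraries gave 1 to 2 lower members at passage 2, 0 to 1 at passage 4 and 0 to 1 with a lower slope difference. With limma on TPM, 1 slope in ESC and 2 in NrESC were higher, and 7 members were higher at passage 8 in ESC. The shares of all genes called by limma are not given here, so these counts describe the members only. The slopes in NrESC of Fdft1 (0.0053) and Lss (0.0029) then changed sign, so that no direction holds for these. With passages as the unit the lower slopes numbered 0 in ESC and 0 in NrESC, the higher slopes in NrESC 0 and the higher slope differences 0. For Cyp51 at passage 0, RLE scaling, no filter, DESeq2 and limma also lost the call. Apart from the reversed values the cause was not tested.

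Replicate numbers did not pair the libraries: deviations of same-numbered libraries correlated at -0.0190 to 0.0616 over the 8 passages. A fit with the replicate number as a block kept the counts in the mean of the 8 passages at 8 higher and 0 lower, and changed none of the 162 calls. Depth and 2 libraries per group limit low genes: for Hsd17b7 -0.18 at passage 0 was not called, and its call at passage 2 (-0.26) was lost at -0.21 and -0.19 when single libraries were left out.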
